A study of Mus musculus with 10 samples.

Results

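Mitochondrial respiratory chain genes were read in mouse neutrophils as the genes whose annotated symbol starts with Nduf, with Sdh followed by a letter from a to d, with Uqcr, with Cox followed by a digit from 4 to 8, or with Atp5. A gene counted as a member where a probe naming it alone had a detection p-value below 0.05 on at least 2 of the 10 arrays, and the probe with the highest mean signal stood for the gene. The array named 91 such genes and 79 of them were members, out of 9744 genes that passed the same detection rule and 19057 genes named on the array. Roles follow the symbols. By role, 35 members count as subunits of complex I, with Ndufa4 and Ndufs5-ps among them, and 6 as complex I assembly factors. For complex II, 3 count as subunits and 3 as assembly factors. Complex III has 6 members, complex IV 10 and complex V 16. The rule uses symbols and detection over all arrays, without regard to group.

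The study profiled circulating neutrophils of female nude NCR mice, an athymic strain, on Illumina bead arrays of total RNA. Fresh neutrophils came from control mice (2 arrays) and from mice bearing tumors of 4T1, a mouse mammary carcinoma line (2 arrays), and were frozen after purification. Neutrophils of control mice were also cultured for 2 h in OptiMEM medium with 0.5% fetal bovine serum, in 6 conditions with a single array apiece. In 3 of these no G-CSF was given (medium alone, CCL2 or CCL5), and in the other 3 the same additions were combined with G-CSF. CCL2 and CCL5 are chemokines, given at 20 ng/ml, and G-CSF is a growth factor for neutrophils and their precursors. The labels name rhGCSF as a treatment, without stating its dose or whether cells or mice received it. The labels give no age, tumor site or stage, purification method or pooling of mice. No label says that replicate arrays came from separate animals, so the p-values measure the spread between these samples, which may be technical.

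The respiratory chain lies in the inner mitochondrial membrane. Complexes I and II pass electrons from NADH and succinate to ubiquinone, complex III passes them on to cytochrome c, complex IV to oxygen, and complex V, the ATP synthase, makes ATP from the proton gradient that complexes I, III and IV build. Most subunits are encoded in the nucleus and a few in mitochondrial DNA. Mature neutrophils hold few mitochondria and make most of their ATP by glycolysis, while their bone marrow precursors hold more.

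Detection was high among the members. Of the 79 members, 62 (78.5%) were detected on all 10 arrays, against 5561 (57.1%) of the 9744 tested genes. Atp5k, Ndufb2 and Ndufb4 entered with detection on 2 arrays. Just outside the limit lay Ndufaf2, Ndufs1, Sdhaf3 and Uqcrfs1, each detected on 1 array, of which Ndufs1 is the largest core subunit of complex I and Uqcrfs1 the Rieske iron-sulfur protein of complex III. Cox4i2, Cox6a2, Cox7b, Cox7b2, Cox8b, Cox8c, Ndufaf6 and Sdha were not well above background on any array. Sdha is the flavoprotein that binds succinate, and Cox4i2, Cox6a2, Cox7b2, Cox8b and Cox8c are forms of their subunits known from lung, muscle or testis. Ndufs5-ps carries a pseudogene symbol, so that whether its probe reads Ndufs5 or a copy is uncertain.

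Across the arrays, 13227 to 14846 of 45281 probes were detected. The small number of arrays limits the precision. The background, taken as the median signal of probes with a detection p-value near the middle of its range, lay between 96.0 and 120. The 95th percentile of the signal lay between 564 and 940. Both fresh groups were alike within themselves, with correlations over genes of 0.988 for the control pair and 0.992 for the tumor pair, where the lowest correlation of any 2 arrays was 0.896. Neutrophil markers were detected throughout, and 13 of the listed markers were tested, S100a8, S100a9 and Csf3r among them, while Ly6g was not among the tested genes. Of 49 listed markers of other mature blood cells, 30 were tested. Their summed signal was 28464 and 32189 in fresh control, 21799 and 25465 in fresh tumor, 24067 to 27688 in culture without G-CSF and 12599 to 15744 with it. Levels below are background-corrected, quantile-normalized log2 intensities. They are compared between arrays for one probe and never between genes.

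**Figure D1:**
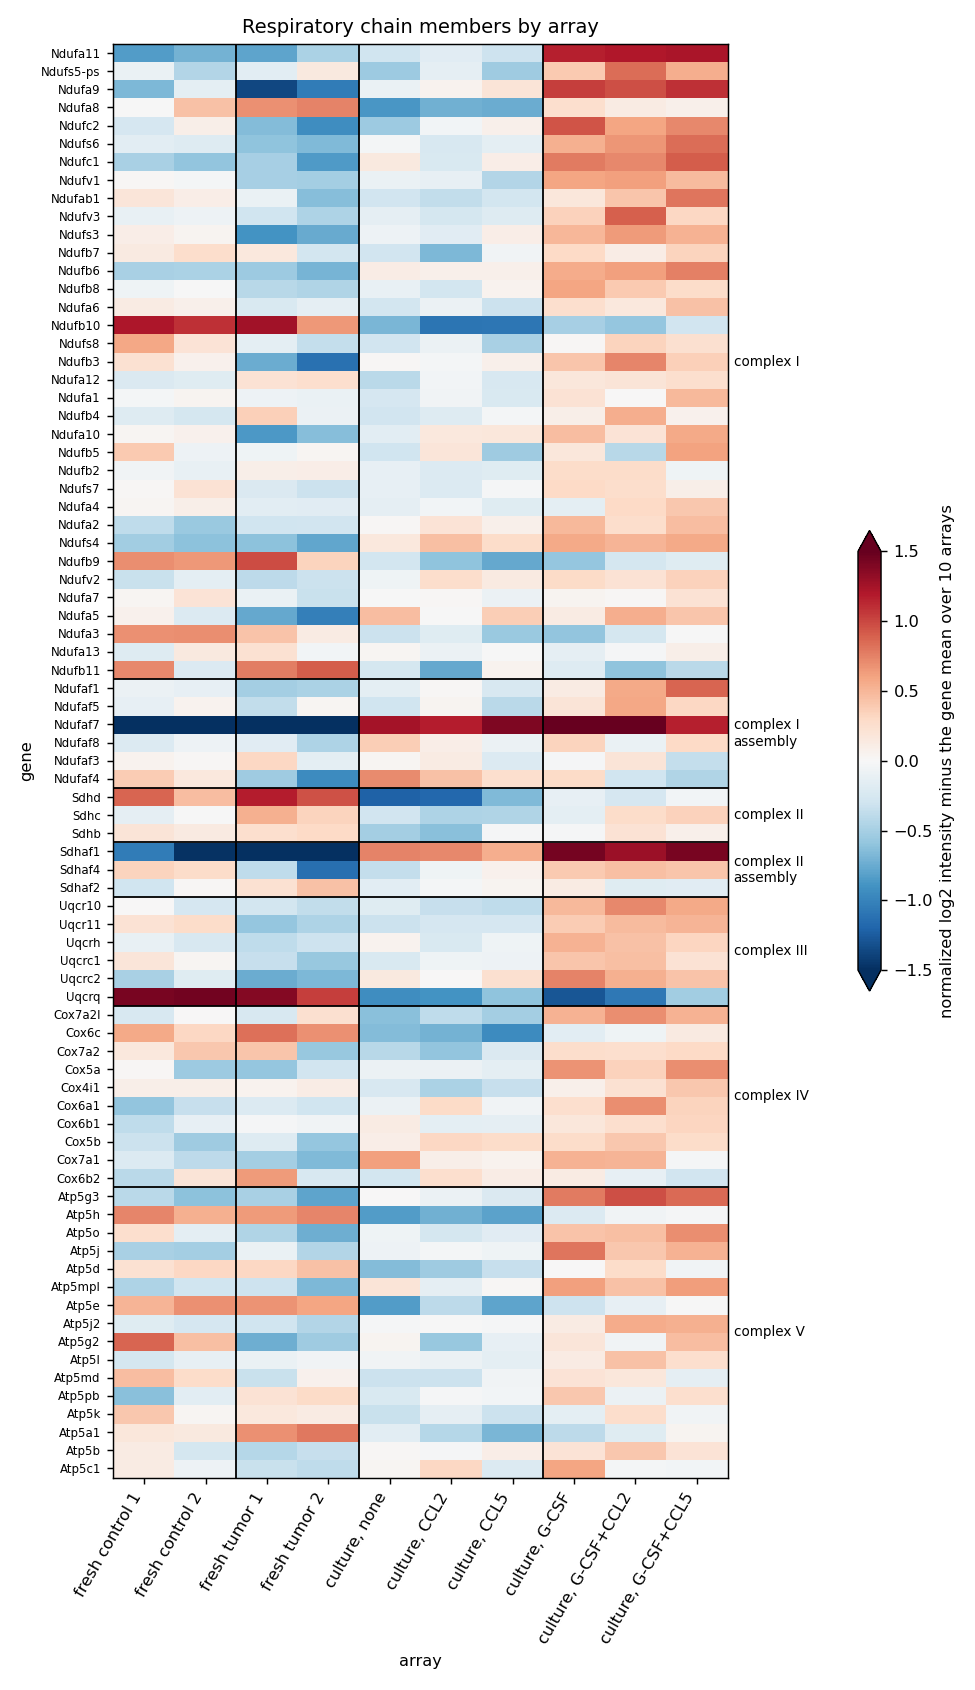
Normalized log2 intensity of the 79 members on each of the 10 arrays, shown for each gene as the difference from its own mean over all arrays, with genes ordered by role and by their G-CSF change. The 3 arrays with G-CSF are high for many genes of complexes I, III, IV and V. In complex II, Sdhd reads higher on the fresh arrays than on the G-CSF arrays. The 2 fresh tumor arrays are low for a smaller number of genes, Atp5g2 and Ndufb3 among them.

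G-CSF came with higher levels across all of the complexes. In the additive fit of the 6 cultured arrays (3 with and 3 without G-CSF, chemokine as a covariate), 34 of 79 members (43.0%) rose and 1 (1.27%) fell, where 14.4% of all tested genes rose and 10.7% fell. The median change of the members was 0.48 on the log2 scale, against 0.05 for all tested genes. In 54 members (68.4%) all 3 G-CSF arrays lay above all 3 others, against 23.8% of all tested genes, and in none of the members did all 3 lie below, against 17.2% of all tested genes. By role, 14 of 35 complex I subunits rose, as did 1 of 3 complex II subunits, 3 of 6 in complex III, 5 of 10 in complex IV and 7 of 16 in complex V, with role medians between 0.42 and 0.56 on the log2 scale. Of the assembly factors, 2 of 6 for complex I and 2 of 3 for complex II rose.

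Each chemokine condition gave its own comparison of an array with G-CSF and an array without. The median member change was 0.46 without chemokine, 0.52 with CCL2 and 0.50 with CCL5, where the median over all tested genes was 0.05, 0.06 and 0.06. The change was positive in 68, 68 and 70 of the 79 members, and 57 members (72.2%) were positive in all 3 comparisons, as were 31.1% of all tested genes.

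Complex I gave the member with the smallest p. Ndufa11, an accessory subunit of the membrane arm, read 6.48, 6.61 and 6.48 on the arrays without G-CSF (no chemokine, CCL2 and CCL5, in this order throughout) and 7.95, 7.99 and 8.01 with it. All G-CSF arrays were high, the groups did not overlap, and the fresh arrays lay lower still, between 5.95 and 6.31. The change was 1.46 ± 0.16 on the log2 scale (SE, 3 against 3 arrays), or 2.75-fold, with a limma adjusted p of 3.32e-04. Ndufa9, an accessory subunit where the matrix and membrane arms meet, read 7.40, 7.55 and 7.69 without and 8.54, 8.47 and 8.60 with G-CSF (0.99 ± 0.16, adjusted p = 0.00234). Ndufa8, an accessory subunit on the intermembrane side, read 8.75, 8.90 and 8.88 against 9.88, 9.74 and 9.70 (0.93 ± 0.16, adjusted p = 0.00341). Neither gene overlapped between the groups. The probe of Ndufs5-ps changed by 0.99 ± 0.16 (adjusted p = 0.00210). Ndufv1, the subunit that binds NADH, and Ndufs3, a core subunit of the matrix arm, rose by 0.79 ± 0.16 (adjusted p = 0.00670) and 0.60 ± 0.16 (adjusted p = 0.0252).

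In complex II, the membrane anchor Sdhd read 4.67, 4.70 and 5.21 without and 5.75, 5.62 and 5.84 with G-CSF, a rise of 0.88 ± 0.17 (adjusted p = 0.00524), with no overlap. Its first 2 readings without G-CSF were not well above background, which limits what the size of the change shows. Over the 15 alternative settings the change ran from 0.28 to 1.13. Sdhc, the other anchor, changed by 0.56 ± 0.18 (adjusted p = 0.0525) and the iron-sulfur subunit Sdhb by 0.47 ± 0.18 (adjusted p = 0.0936), and neither passed. Of the complex II assembly factors, Sdhaf1, which helps to fit the iron-sulfur clusters into Sdhb, rose by 0.71 ± 0.16 (adjusted p = 0.0115) and Sdhaf4 by 0.54 ± 0.16 (adjusted p = 0.0391).

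Complex III members with a rise were the small accessory subunits Uqcr10 and Uqcr11 and the hinge protein Uqcrh. Uqcr10 read 10.92, 10.75 and 10.72 without and 11.59, 11.82 and 11.66 with G-CSF, a change of 0.89 ± 0.16 (adjusted p = 0.00445). Uqcr11 read 9.13, 9.21 and 9.21 against 9.83, 9.92 and 9.96, a change of 0.72 ± 0.15 (adjusted p = 0.00898). Uqcrh changed by 0.51 ± 0.16 (adjusted p = 0.0440). The G-CSF arrays lay above the others for Uqcr10 and Uqcr11.

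The leading gene with a Cox symbol was Cox7a2l, which joins complexes III and IV into supercomplexes. It read 9.04, 9.29 and 9.15 without and 10.19, 10.37 and 10.19 with G-CSF, a change of 1.09 ± 0.15 (adjusted p = 0.00134). All 3 G-CSF arrays stood above the 7 others, whose highest reading was 9.90 in fresh tumor. Its relative Cox7a2 rose by 0.68 ± 0.16 (adjusted p = 0.0142), while Cox7a1, the muscle form, changed by 0.09 ± 0.17 (adjusted p = 0.755). Cox6c rose by 0.74 ± 0.17 (adjusted p = 0.0143). Among the large nuclear-encoded subunits, Cox5a rose by 0.68 ± 0.16 (adjusted p = 0.0161) and Cox4i1 by 0.59 ± 0.17 (adjusted p = 0.0299). Cox5b changed by 0.09 (95% interval -0.26 to 0.44), Cox6a1 by 0.38 (0.03 to 0.72), Cox6b1 by 0.30 (-0.07 to 0.68), Cox6b2 by -0.12 (-0.57 to 0.32) and Ndufa4, which sits in complex IV despite its symbol, by 0.31 (-0.09 to 0.70), none past the adjusted threshold.

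In complex V, Atp5g3, one of the genes for the c subunit of the rotor ring, read 11.03, 10.93 and 10.81 without and 11.80, 11.99 and 11.87 with G-CSF. It rose by 0.96 ± 0.16 (adjusted p = 0.00287), and the groups did not overlap. Atp5h and Atp5o, subunits of the peripheral stalk, each rose by 0.69 ± 0.16 (adjusted p = 0.0116 and 0.0142). The catalytic head genes did not pass, with 0.24 ± 0.20 for Atp5a1 (adjusted p = 0.436) and 0.24 ± 0.16 for Atp5b (adjusted p = 0.331). A further probe of Atp5a1 went the other way, with -0.83 (adjusted p = 0.026).

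The complex I assembly factors were mixed. Ndufaf1 rose by 0.64 ± 0.19 (adjusted p = 0.0392). Ndufaf5, which hydroxylates a core subunit, was not well above background on the 3 arrays without G-CSF (mean 4.61) and was detected on all 3 with it (mean 5.19), at least 1.24-fold higher (adjusted p = 0.0250). Ndufaf4 read 6.07, 5.80 and 5.61 without and 5.64, 5.06 and 4.91 with G-CSF. It fell by 0.62 (log2, SE 0.16, adjusted p = 0.0210), though the G-CSF array without chemokine lay inside the range of the arrays without G-CSF.

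**Figure D2:**
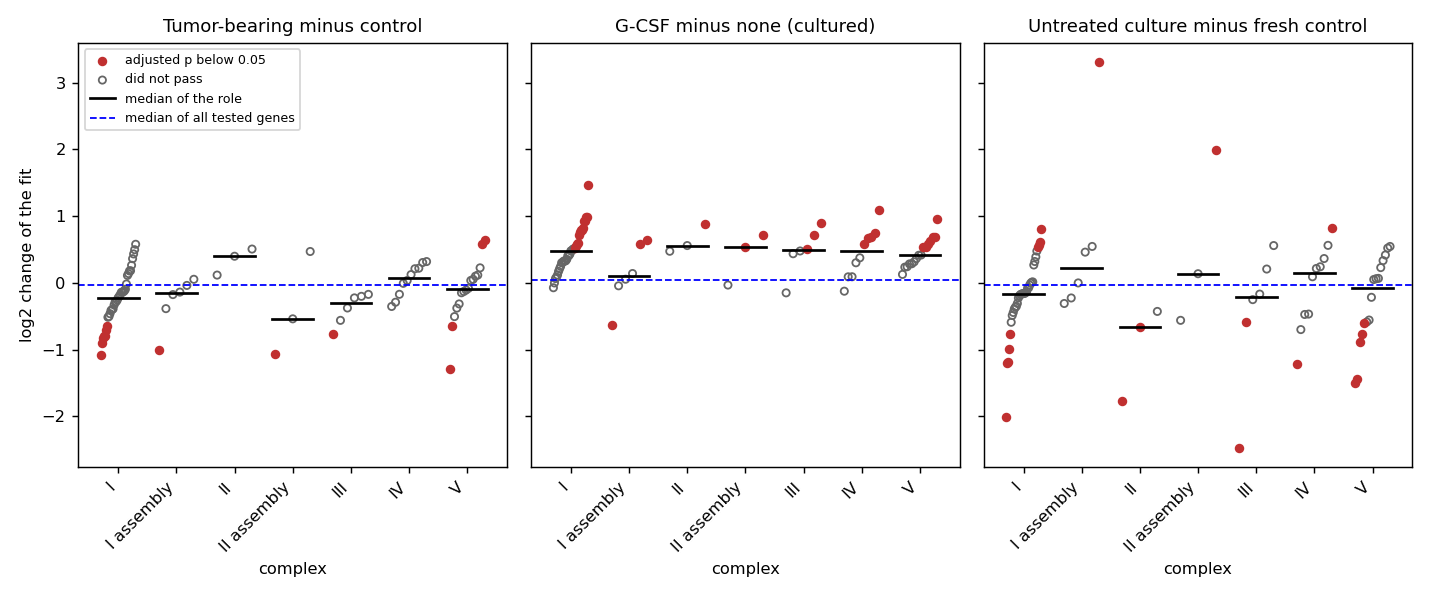
Log2 change of each member by complex in 3 comparisons, with filled points past an adjusted p of 0.05, a black line at the median of each role and a dashed line at the median of all tested genes. With G-CSF the points of complexes I to V lie mostly above the dashed line. In the other comparisons the members as a whole lie on both sides of it. In tumor-bearing mice, though, all complex III members lie below it and all complex II subunits above it. In culture all complex II subunits lie below it, and Ndufaf7 at 3.31 and Uqcrq at -2.47 stand furthest out.

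The G-CSF arrays were brighter before normalization. Their median member signal was 558 to 637 on the scanner scale, against 298 to 324 without G-CSF, and their 95th percentile of all signals was 775 to 940 against 564 to 638. How arrays were scaled moved all genes: the median change of all tested genes was 0.05 with quantile normalization, 0.33 with scaling to the array median and -0.33 with scaling to the median of genes detected on all arrays. With array-median scaling 66 members rose and none fell, where 41.0% of all tested genes rose and 5.16% fell. With scaling on detected genes 25 members rose and 4 fell, where 10.5% of all tested genes rose and 40.1% fell. The difference between the member median and the median of all tested genes was positive in all 16 settings run, between 0.32 and 0.58. Leaving out the pair of arrays without chemokine left 16 rises (20.3% of members, against 7.78% of all tested genes). Leaving out the CCL2 pair left 23 (29.1%, against 11.5%) and the CCL5 pair 19 (24.1%, against 10.2%). Cell markers moved with G-CSF too. Of the 30 tested markers of other mature blood cells 20 fell (median -0.95) and none rose. Kit, the stem cell factor receptor and the one tested gene of the progenitor list, was not well above background without G-CSF (4.58 to 4.86) and read 7.59 to 8.07 with it, at least 7.81-fold higher (adjusted p = 4.08e-05), while a further probe of Kit changed by 0.01. Of 13 neutrophil markers 4 rose, among them Ngp (1.73 ± 0.19, adjusted p = 4.60e-04), and 3 fell. The part of these cell markers in the result was not tested. In bulk samples fewer cells of a type and less RNA per cell cannot be told apart.

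The stretch of 120 bases before the annotated start is shown for Ndufa11, Ndufa8, Sdhd, Uqcr11 and Cox7a2l, which rose with G-CSF. They were picked by their motifs: the first 4 are, for each core named below, the 2 risers with the smallest p that hold it in these bases, and Cox7a2l is the riser with the smallest p that holds none. Uqcr10 held no core in its window and Ndufa9 a YY1 core alone, so the set does not stand for all risers. The windows are those of RefSeq on GRCm38.p6 and lie at chr17:56717642-56717761 (plus strand) for Ndufa11, chr2:36049339-36049458 (minus) for Ndufa8, chr9:50603850-50603969 (minus) for Sdhd, chr10:80406822-80406941 (minus) for Uqcr11 and chr17:83514334-83514453 (minus) for Cox7a2l. Capitals mark a core of NRF1 (GCGCA, any base, then GCGC) or of ETS factors such as GABPA (CCGGAAG), both long known as regulators of respiratory chain genes, on either strand.
Ndufa11: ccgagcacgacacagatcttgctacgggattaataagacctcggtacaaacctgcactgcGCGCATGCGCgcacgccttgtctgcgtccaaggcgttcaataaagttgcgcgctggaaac
Ndufa8: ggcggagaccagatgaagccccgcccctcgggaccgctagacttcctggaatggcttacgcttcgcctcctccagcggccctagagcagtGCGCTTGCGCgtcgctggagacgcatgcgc
Sdhd: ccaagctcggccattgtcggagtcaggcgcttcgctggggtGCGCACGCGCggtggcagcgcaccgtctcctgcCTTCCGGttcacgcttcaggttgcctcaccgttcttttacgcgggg
Uqcr11: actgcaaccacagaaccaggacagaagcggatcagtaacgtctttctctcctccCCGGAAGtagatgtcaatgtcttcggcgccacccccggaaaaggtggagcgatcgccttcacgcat
Cox7a2l: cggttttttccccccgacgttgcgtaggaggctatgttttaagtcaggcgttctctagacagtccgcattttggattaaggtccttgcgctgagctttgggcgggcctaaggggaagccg
Ndufa11 and Ndufa8 held an NRF1 core, Sdhd an NRF1 and an ETS core, Uqcr11 an ETS core, and Cox7a2l none of these letters in the bases shown.

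Of the 79 members, 69 had a promoter window of 250 bases before to 50 after the start. An NRF1 core lay in the windows of 18 members (26.1%), against 11.1% of the 7960 tested genes with a window and 5.19% of all genes with one. The ETS core was found in 20 members (29%), against 19.8% of tested genes and 9.93% of all genes, and a YY1 core (AANATGGCG) in 12 (17.4%), against 5.88% and 2.76%. At least 1 of these cores lay in 42 members (60.9%), against 31.8% of tested genes and 15.9% of all genes. Among members with a window, 20 of the 30 that rose with G-CSF (66.7%) and 22 of the 39 others (56.4%) held one. These matches describe letters and no binding was measured.

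Tumor-bearing mice gave a smaller and less uniform picture. In the fit of the 4 fresh arrays (2 against 2), 2 of 79 members (2.53%) rose and 12 (15.2%) fell, where 8.09% of all tested genes rose and 11.5% fell, so that the share of falls lay near that of all genes. Without background correction, and with the authors' processed values, 26.6% of members fell, against 13.4% of all tested genes. With scaling to the array median 11.4% of members fell, against 10.4%. Before normalization the tumor arrays were brighter, with 95th percentiles of all signals of 818 and 862, against 730 and 669 in control. In the main setting the median member change was -0.15 on the log2 scale, against -0.04 for all tested genes. The difference between these medians was negative in all 15 settings run, between -0.18 and -0.02. In 37 members (46.8%) both tumor arrays lay below both control arrays, against 32.8% of all tested genes, and in 17 (21.5%) both lay above, against 26.0%. Complex I held 7 of the falls and none of the rises, complex V held 2 of each, and complexes II and IV held no call.

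Atp5g2, another of the genes for the c subunit of the ATP synthase, read 7.63 and 7.19 in control and 6.01 and 6.21 in tumor. It fell by 1.30 on the log2 scale (SE 0.20, 2 against 2 arrays, limma adjusted p = 0.00112). Both tumor arrays were low, and the gap between the groups was wider than that between the control arrays. Atp5o, the stalk subunit that links the head to the stator, fell by 0.64 (log2, SE 0.20, adjusted p = 0.0471).

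In complex I, Ndufb3, an accessory subunit of the membrane arm, read 7.98 and 7.82 in control and 7.01 and 6.63 in tumor (-1.08 ± 0.20, adjusted p = 0.00281). Ndufs3 read 7.25 and 7.20 against 6.26 and 6.39 (-0.90 ± 0.18, adjusted p = 0.00484). Ndufa10 read 8.15 and 8.18 against 7.25 and 7.48 (-0.80 ± 0.18, adjusted p = 0.0105). None of the 3 overlapped between the groups. The other falls in complex I were those of Ndufa5, Ndufa9, Ndufc2 and Ndufs8, from -0.82 to -0.65. The assembly factor Ndufaf4 was detected on both control arrays (mean 5.62) and was not well above background on either tumor array (mean 4.62), at least 1.69-fold lower (adjusted p = 0.00501).

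In complex III, Uqcr11 read 9.68 and 9.73 in control and 8.88 and 9.0 in tumor (-0.76 ± 0.18, adjusted p = 0.0116). The other complex III members did not pass. All 6 had both tumor arrays below both control arrays, as did 32.8% of all tested genes. Before normalization the signals of Uqcr10, Uqcrc2, Uqcrh and Uqcrq overlapped between the groups, while those of Uqcr11 and Uqcrc1 did not. The complex II assembly factor Sdhaf4 read 6.28 and 6.21 against 5.56 and 4.81 (-1.06 ± 0.24, adjusted p = 0.00950). The tumor arrays differed by more than the control arrays did, without reaching them.

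The rises were those of Atp5a1, the catalytic alpha subunit, and Atp5pb, subunit b of the peripheral stalk. Atp5a1 read 6.26 and 6.24 in control and 6.78 and 6.88 in tumor (0.58 ± 0.18, adjusted p = 0.0396), while a further probe of the gene gave -0.44 (adjusted p = 0.245), so that the probes disagree in sign. Atp5pb read 8.83 and 9.30 against 9.67 and 9.74 (0.64 ± 0.20, adjusted p = 0.0481). The 3 further probes of Atp5pb changed by 0.51, 0.52 and 0.92, the same way. Atp5b, the catalytic beta subunit, changed by -0.31 ± 0.19 (adjusted p = 0.298).

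No complex II or complex IV subunit passed. Sdhc changed by 0.51 ± 0.18 (adjusted p = 0.0752), Sdhd by 0.40 ± 0.20 (adjusted p = 0.198) and Sdhb by 0.12 ± 0.18 (adjusted p = 0.701). The smallest p in complex IV was that of Cox6c, with 0.32 ± 0.19 (adjusted p = 0.267). Intervals of 95% ran from -0.39 to 0.38 for Cox4i1, -0.65 to 0.31 for Cox5a, -0.40 to 0.48 for Cox5b, -0.18 to 0.63 for Cox6a1, -0.19 to 0.62 for Cox6b1, -0.32 to 0.94 for Cox6b2, -0.96 to 0.26 for Cox7a2, -0.33 to 0.58 for Cox7a2l and -0.61 to 0.17 for Ndufa4. Cox7a1 was not well above background on any fresh array.

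Single arrays weighed on these changes. Without the second tumor array the median member change was -0.07, against -0.04 for all tested genes, and without the first it was -0.23, against -0.05. Without the first control array it was -0.13, against -0.03, and without the second -0.19, against -0.04. Atp5g2, Ndufb3 and Ndufs3 passed in all 14 alternative settings. Of the 30 tested markers of other mature blood cells 22 fell (median -1.63) and none rose. Kit, from the progenitor list, was not well above background in control (4.40 and 4.37) and read 7.92 and 8.10 in tumor, at least 9.25-fold higher (adjusted p = 8.44e-07), while its further probe changed by 0.45. Of the neutrophil markers 5 of 13 rose and none fell, Ngp by 1.85 ± 0.20 (adjusted p = 7.72e-05). The part of these markers in the result was not tested.

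Both effects were set against each other, since they share no array. Over all 10 arrays, the tumor effect was lower than the G-CSF effect in 30 of 79 members (38%) and higher in none, where it was lower in 13.3% and higher in 7.88% of all tested genes. The median difference was -0.57 on the log2 scale for the members and -0.09 for all tested genes. By role, the 30 comprised 17 complex I subunits, 1 complex I assembly factor, 2 complex II assembly factors, 4 members of complex III, 3 of complex IV and 3 of complex V. The smallest p belonged to Uqcr11, with a difference of -1.49 ± 0.23 (adjusted p = 7.68e-04), and the widest difference to Ndufa9, with -1.79 ± 0.28 (adjusted p = 8.60e-04). Atp5g2 differed by -1.71 ± 0.27 (adjusted p = 9.51e-04), Ndufs3 by -1.5 ± 0.24 (adjusted p = 0.00102) and Ndufb3 by -1.56 ± 0.26 (adjusted p = 0.00150). Among the assembly factors the difference was -1.60 ± 0.30 for Sdhaf4 (adjusted p = 0.00293), -1.25 ± 0.27 for Sdhaf1 (adjusted p = 0.00597) and -1.03 ± 0.27 for Ndufaf1 (adjusted p = 0.0177). Cox7a2l differed by -0.97 ± 0.26 (adjusted p = 0.0196), and Sdhd, with the smallest p among complex II subunits, by -0.48 ± 0.27 (adjusted p = 0.226). Without the second tumor array the median difference was -0.55 for the members and -0.09 for all tested genes. The groups come from different experiments, fresh and cultured, which the difference takes as having the same spread.

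Atp5o, Ndufa9, Ndufc2, Ndufs3, Sdhaf4 and Uqcr11 fell in tumor-bearing mice and rose with G-CSF. In the separate comparisons 12 of 79 members fell in tumor and 34 rose with G-CSF, so some overlap can arise from these counts alone. The share of all tested genes with both calls was not computed, and these genes are named as a description. Ndufa9 read 6.83 and 7.35 in fresh control, 6.13 and 6.45 in fresh tumor, 7.40 to 7.69 in culture without G-CSF and 8.47 to 8.60 with it. Ndufc2 read 6.21 and 6.55, then 5.81 and 5.54, then 5.92 to 6.54 and 7.05 to 7.41. In both genes the tumor arrays were the lowest and the G-CSF arrays the highest of the 10. Sdhaf4 read 5.58 to 6.0 in culture without and 6.33 to 6.39 with G-CSF, a change of smaller size than its fall in tumor. Ndufaf4 fell in both comparisons. A further 28 members passed as rises with G-CSF and did not pass in tumor, 5 passed as falls and 2 as rises in tumor and did not pass with G-CSF, and 37 passed in neither. Passing in 1 comparison does not show that the effects differ, and for the 2 rises, Atp5a1 and Atp5pb, the difference between the effects did not pass. In 50 members the tumor change was negative and the G-CSF change positive, whether or not they passed. Taken singly, 52 of the 79 tumor changes were negative and 72 of the G-CSF changes positive, which alone makes many such pairs. The share of all tested genes with this pair of signs was not computed. Across the 79 members, which share the same arrays, the 2 changes had a Pearson correlation of -0.02 and a Spearman correlation of -0.09, against 0.27 and 0.14 across all 9744 tested genes.

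**Figure D3:**
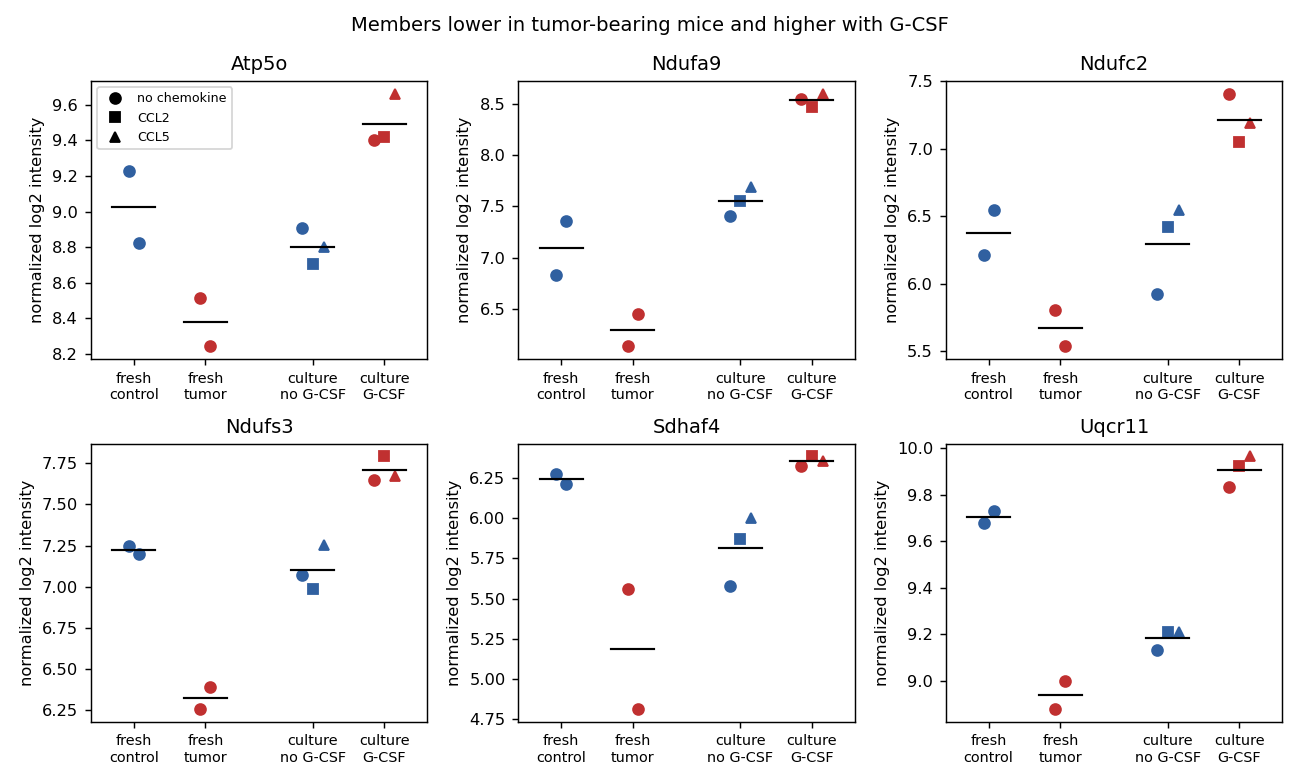
Normalized log2 intensity on each array for the 6 members that were lower in fresh neutrophils of tumor-bearing mice and higher with G-CSF in culture, with black lines at group means and marker shapes for the added chemokine. In each panel both fresh tumor arrays lie below both fresh control arrays and the 3 G-CSF arrays lie above the 3 others.

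**Figure D4:**
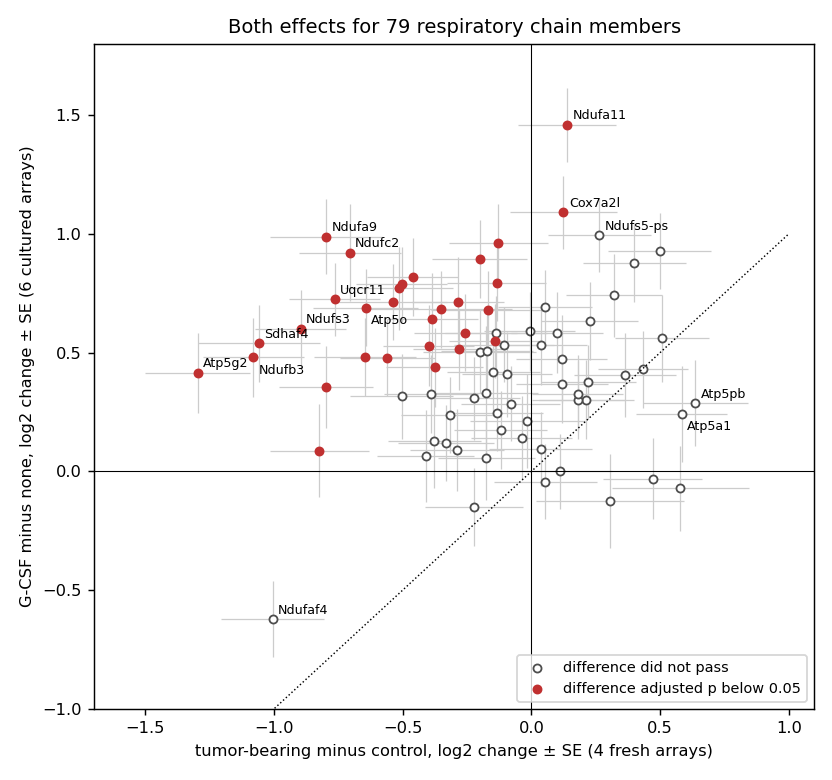
Log2 change with G-CSF against log2 change in tumor-bearing mice for the 79 members, with standard errors, filled where the difference between both effects passed an adjusted p of 0.05, and a dotted line of equal effects. The 30 filled points all lie above the dotted line, and most points lie above the horizontal line at 0 whichever side of the vertical line they take.

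Between fresh control and untreated culture, member changes ran from -2.47 to 3.31 on the log2 scale, against -0.62 to 1.46 with G-CSF and -1.30 to 0.64 in tumor, and they went both ways. In the fit of all 10 arrays, 7 of 79 members (8.86%) were higher and 15 (19.0%) lower in untreated culture (1 array) than in fresh control (2 arrays), where 16.4% of all tested genes were higher and 17.9% lower. The median member change was -0.16, against -0.02 for all tested genes. Culture, its 2 h and the separate experiment cannot be told apart here. The spread comes from the fresh pairs and the additive culture layout, so that the lone array was assumed to vary like the others. The fitted changes draw on all 6 cultured arrays and can differ from the gap between the readings printed.

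Ndufaf7, which methylates a core subunit during complex I assembly, read 5.11 and 4.97 in fresh control and 8.28 in untreated culture, with a fitted change of 3.31 ± 0.23 (limma adjusted p = 2.39e-07). All 6 cultured arrays were high, between 8.21 and 8.59, and the fresh tumor arrays read 4.80 and 5.20. The complex II assembly factor Sdhaf1 read 6.77 and 6.33 in fresh control and 8.56 in culture (2.00 ± 0.23, adjusted p = 1.62e-05). In complex IV, Cox7a1 was detected in untreated culture (5.56) and was not well above background in fresh control (mean 4.65), at least 1.69-fold higher (adjusted p = 0.00854).

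Uqcrq, a small subunit of complex III, went furthest down. It read 9.18 and 9.20 in fresh control and 6.82 in untreated culture, with a fitted change of -2.47 ± 0.21 (adjusted p = 1.46e-06). The 6 cultured arrays read 6.48 to 7.23 and none came near the fresh ones, the lowest of which read 8.80. In complex I, Ndufb10 fell by 2.00 (log2, SE 0.24, adjusted p = 3.28e-05), Ndufa3 by 1.18 (SE 0.24, adjusted p = 0.00150) and Ndufa8 by 0.99 (SE 0.22, adjusted p = 0.00288). Sdhd was not well above background in untreated culture (4.67) and read 6.75 and 6.35 in fresh control, at least 3.25-fold lower (adjusted p = 4.07e-05). Sdhb fell by 0.66 (SE 0.22, adjusted p = 0.0318), and Sdhc changed by -0.43 ± 0.22 (adjusted p = 0.161).

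In complex V, Atp5h fell by 1.5 (log2, SE 0.19, adjusted p = 5.64e-05) and Atp5d, the delta subunit of the central stalk, by 0.89 (SE 0.21, adjusted p = 0.00431). Atp5e, the epsilon subunit beside it, was not well above background in untreated culture and was at least 2.5-fold lower (adjusted p = 1.29e-04). Cox6c fell by 1.21 (SE 0.22, adjusted p = 6.89e-04) and Uqcr11 by 0.58 (SE 0.19, adjusted p = 0.0294). Of the further Cox isoforms, Cox4i1 changed by -0.47 ± 0.20 (adjusted p = 0.0900), Cox5a by 0.22 ± 0.24 (adjusted p = 0.527), Cox5b by 0.56 ± 0.21 (adjusted p = 0.0545), Cox7a2 by -0.70 ± 0.29 (adjusted p = 0.0766) and Cox7a2l by -0.47 ± 0.22 (adjusted p = 0.116). Atp5a1 changed by -0.56 ± 0.24 (adjusted p = 0.0879) and Atp5b by 0.06 ± 0.21 (adjusted p = 0.853). Cox6a1 changed by 0.37 (95% interval -0.06 to 0.79), Cox6b1 by 0.24 (-0.20 to 0.69), Cox6b2 by 0.09 (-0.60 to 0.79) and Ndufa4 by -0.35 (-0.80 to 0.10), none past the adjusted threshold.

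The complex I rises in culture were those of Ndufs4, Ndufc1 (0.61 ± 0.21, adjusted p = 0.0369), Ndufa2 (0.57 ± 0.20, adjusted p = 0.0411) and Ndufb6. For Ndufs4, an accessory subunit of the matrix arm, the probe used gave 0.81 ± 0.20 (adjusted p = 0.00632) while 3 further probes gave -0.67, -0.40 and 0.12, and the mean of all its probes gave -0.04. A further probe of Ndufc1 gave -0.26 and one of Ndufb6 gave -0.04, against the direction of the probe used. Of 10 further probes of members called in culture, 5 went the same way as the probe used. Without the first fresh control array the median member change was -0.14, against -0.01 for all tested genes, and without the second -0.13, against -0.02. Taking every array, all 6 cultured arrays lay above all 4 fresh arrays in 17 members (21.5%), against 15.3% of all tested genes, and below them in 9 (11.4%), against 14.3%. Markers of other blood cells moved both ways in this comparison, with 6 of 30 higher and 13 lower, and their part in the result was not tested.

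**Figure D5:**
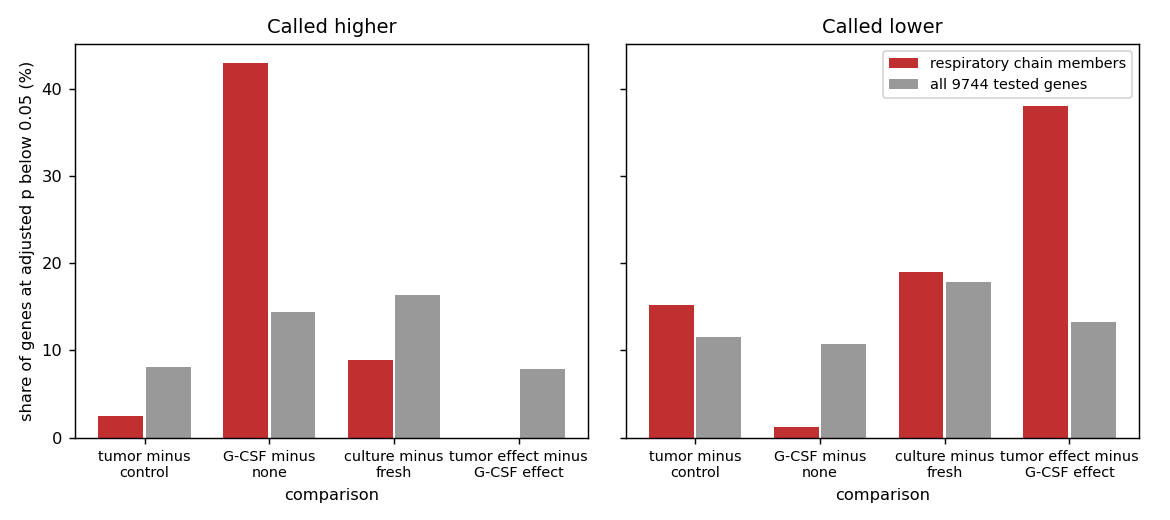
Share of the 79 members and of all 9744 tested genes past an adjusted p of 0.05, higher (left) and lower (right), in 4 comparisons. The members stand at 43.0% against 14.4% for rises with G-CSF and at 38% against 13.3% for a lower tumor than G-CSF effect, while the other pairs of bars lie closer together.

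Neither chemokine changed a member past the test. With CCL2 and with CCL5, 0 of 79 members and 0 (0%) of all 9744 tested genes had an adjusted p below 0.05 in limma, and at an unadjusted p below 0.05 there were 1 and 3 members and 480 and 389 genes. Member changes ran from -0.46 to 0.43 with CCL2 and from -0.60 to 0.54 with CCL5. The smallest p for CCL2 was that of Ndufs5-ps (0.43 ± 0.19, adjusted p = 0.962) and for CCL5 that of Ndufaf4 (-0.60 ± 0.20, adjusted p = 0.997). In the other roles the smallest p with CCL2 belonged to Ndufaf4 (-0.43), Sdhc (0.13), Sdhaf4 (0.18), Uqcrh (-0.18), Cox6a1 (0.41) and Atp5g2 (-0.42), given as log2 changes. With CCL5 it belonged to Ndufab1 (0.32), Sdhd (0.32), Sdhaf4 (0.23), Uqcrq (0.54), Cox7a1 (-0.55) and Atp5c1 (-0.43). Whether chemokine effects differed with G-CSF was tested over 8 group means, which takes its spread only from the 2 fresh pairs of another experiment and assumes that lone cultured arrays vary alike. Again 0 of 79 members and 0% of all tested genes passed, with 3 and 2 members and 886 and 710 genes at an unadjusted p below 0.05. The members with the smallest p were Ndufb5 for CCL2 (-1.06 ± 0.41, adjusted p = 0.499) and Atp5a1 for CCL5 (0.97 ± 0.35, adjusted p = 0.590). These fits have 2 residual degrees of freedom, so that 0 calls says little about the size of such effects, and the 3 chemokine and G-CSF effects share arrays.

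Other mitochondrial gene lists were read in the same fits. With G-CSF, where 14.4% of all tested genes rose and 10.7% fell, 23 of 67 mitochondrial ribosomal protein genes rose (34.3%) and 2 fell, led by Mrps12 (1.30 ± 0.16, adjusted p = 7.02e-04) and Mrps34 (1.23 ± 0.16, adjusted p = 9.18e-04). Citric acid cycle genes rose in 6 of 15 cases (40%), among them Suclg1, a subunit of succinyl-CoA ligase (1.22 ± 0.17, adjusted p = 0.00109), and Ogdh, of the oxoglutarate dehydrogenase (0.90 ± 0.18, adjusted p = 0.00595), while Mdh2, the mitochondrial malate dehydrogenase, fell by 0.96 (SE 0.16, adjusted p = 0.00247). Of 31 assembly and carrier genes of the chain outside the naming rule 9 rose (29%) and 1 fell. Etfdh and Etfa, which feed electrons from fatty acid oxidation to ubiquinone, rose by 1.00 ± 0.17 (adjusted p = 0.00275) and 0.88 ± 0.16 (adjusted p = 0.00397). The copper chaperone Cox17 fell by 0.62 (SE 0.16, adjusted p = 0.0227). Of 18 import genes 4 rose (22.2%) and 1 fell.

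Regulators of mitochondrial biogenesis did not move as one with G-CSF, with 3 of 14 higher (21.4%) and 2 lower (14.3%), near the shares of all tested genes. Gabpa, the ETS factor named above, rose by 0.98 ± 0.29 (adjusted p = 0.0350) and the nuclear receptor Esrra by 0.67 ± 0.18 (adjusted p = 0.0224). Polrmt, the mitochondrial RNA polymerase, and Twnk, the helicase of mitochondrial DNA, fell by 1.08 (SE 0.17, adjusted p = 0.00191) and 0.59 (SE 0.16, adjusted p = 0.0241).

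In tumor-bearing mice, where 11.5% of all tested genes fell and 8.09% rose, 11 of 67 mitochondrial ribosomal protein genes (16.4%) fell and 1 rose. Of the assembly and carrier genes 12.9% fell and of the import genes 11.1%, near the share of all genes. Of 15 citric acid cycle genes 4 (26.7%) fell and 1 rose, and of 14 regulators 3 (21.4%) fell and 1 rose. Mrpl23 fell by 1.90 (log2, SE 0.21, adjusted p = 1.19e-04) and Mrps28 rose by 1.26 ± 0.18 (adjusted p = 6.98e-04). Fumarase, Fh1, fell by 1.1 (SE 0.18, adjusted p = 0.00160), Idh3b of the NAD-linked isocitrate dehydrogenase by 0.93 (SE 0.18, adjusted p = 0.00407), and Cox10, an enzyme of heme a synthesis, by 1.00 (SE 0.21, adjusted p = 0.00710). Polrmt fell by 0.96 (SE 0.19, adjusted p = 0.00503). Genes of the glycolysis list, which also holds pyruvate dehydrogenase kinases, by contrast rose in 11 of 18 cases (61.1%) with no fall. Among the rises were Aldoc (1.08 ± 0.18, adjusted p = 0.00165), Pfkl (1.1 ± 0.19, adjusted p = 0.00187) and the kinases Pdk1 and Pdk3. With G-CSF 4 of those 18 rose and 3 fell. In culture, where 16.4% of all tested genes rose and 17.9% fell, 6 of 15 citric acid cycle genes fell, Mdh2 by 2.06 (SE 0.19, adjusted p = 3.10e-06), and none rose, while mitochondrial ribosomal protein genes split into 12 rises and 10 falls.

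The genes of the chain that lie in mitochondrial DNA fall outside the naming rule and were looked up after the values of the members were seen. ND1 and ND4 of complex I read 11.81 and 11.31 and 12.74 and 12.45 in fresh control, against 10.39 and 10.31 and 11.78 and 11.90 in tumor. ND1 fell by 1.21 (log2, SE 0.21, adjusted p = 0.00189), ND4 by 0.76 (SE 0.19, adjusted p = 0.0162) and CYTB, the cytochrome b of complex III, by 0.78 (SE 0.18, adjusted p = 0.00980). COX2 (-0.21 ± 0.18, adjusted p = 0.456) and ATP6 (-0.68 ± 0.26, adjusted p = 0.0932) did not pass in tumor. With G-CSF, COX2 read 8.67 to 8.76 without and 9.55 to 9.85 with it (1.00 ± 0.16, adjusted p = 0.00212), with no overlap. ND4 rose by 0.72 ± 0.16 (adjusted p = 0.00995) and CYTB by 0.50 ± 0.16 (adjusted p = 0.0486), while ND1 changed by 0.30 ± 0.18 (adjusted p = 0.269). In culture ATP6, ND1, COX2, ND4 and CYTB all fell, from -2.03 for ATP6 to -0.60 for CYTB. ND5 was detected on 5 arrays and passed in none of these comparisons, and ND4L and ND6 were not well above background on any array.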

How the data were processed

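Total RNA of 10 neutrophil samples was read on Illumina mouse bead arrays. Per the file headers, a first deposited table holds an average signal intensity, a detection p-value, and bead numbers and bead standard errors (other, not used for tests) for each probe. A second deposited table holds the authors' log2 values, found to match the log2 signals after quantile normalization alone (largest difference 0.00531, 10 of 10 arrays matching). Partek is named per the submitters' processing notes, and its version, the scanner software and the annotation build are not recorded in those sources.

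Signals were corrected by normexp with negative controls inferred from detection p-values (offset 16) and quantile-normalized in R 4.3.3 with limma 3.58.1. This widens changes of dim probes and removes brightness differences between arrays. Changes are limma fits on log2 values, two-sided, with Benjamini-Hochberg adjustment over all 9744 tested genes at 0.05. The scripts were tested on simulated data. A bound ("at least") sets each array of the undetected group to no less than its lowest detected signal. No label says that replicate numbers mark a shared animal, day or batch, so they were not used as a block in the main fit. Replicate deviations of both fresh groups correlated at 0.0555 over genes, which cannot show whether equal numbers share any of these. Named are, per comparison and role, up to 3 rises and 3 falls with the smallest p, the complex II subunits, Cox isoforms, Ndufa4, Atp5a1 and Atp5b, and up to 2 of each list. Other genes named were picked once their values were known. The members and lists were chosen with earlier results of these data known. Other settings for background, scaling, filter and probe choice, and leaving out arrays, were tried.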

Additional observations from a re-analysis of the deposited data

How the results depend on the processing

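With G-CSF, 34 rises and 1 fall among members became 66 and 0 with median scaling (median 0.91), 46 and 0 without background correction or with the authors' values (median 0.35 in both, against 0.48), 44 and 1 with an offset of 50 (median 0.37), and 25 and 4 (median 0.25) with scaling to the median of genes detected on all arrays, a setting added after seeing the data. Of all called genes 57.4% were higher in the main setting, 88.8% with median scaling and 20.8% with that added setting. Leaving out single arrays gave 16 to 23 rises (20.3% to 29.1% of members, against 7.78% to 11.5% of all tested genes) and 0 falls. For tumor-bearing mice, 2 rises and 12 falls became 6 and 21 without background correction and with the authors' values. There 26.6% of members fell, against 13.4% of all tested genes. The counts were 4 and 16 with an offset of 50, and 6 and 9 with median scaling (median -0.0044, against -0.15). They were 1 and 7 without the filter on dim probes, and 0 and 11 with all 10 arrays in the fit. Leaving out single arrays gave member medians from -0.23 to -0.07, against -0.05 to -0.03 for all tested genes. With the replicate number as a block there were 2 rises and 13 falls. In culture, 7 rises became 12 without background correction, with an offset of 50 and with the authors' values, 4 with median scaling (median -0.32) and 14 with the added scaling (median -0.0391), and leaving out single arrays gave 4 to 5 rises and 10 to 15 falls. Ndufs4 turned from 0.81 to -0.0374 with the mean of all probes. For the tumor effect against the G-CSF effect, 30 lower and 0 higher became 49 lower with median scaling (median -0.81) and 1 higher with the added scaling (median -0.24). The median was -0.43 without background correction and with the authors' values. Leaving out single arrays gave member medians from -0.62 to -0.55, against -0.10 to -0.09 for all tested genes. The counts for CCL2 and CCL5 were 0 in all 14 settings run for them, and those for the interactions in all 8; the added scaling was not run there. The cause of these shifts was not tested. Members near background, such as Ndufaf4, Ndufaf5 and Atp5k, have signals that limit what their changes show.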
